A study of Homo sapiens with 12 samples.

Results

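Transcripts of 10 genes that encode immune checkpoint ligands and related surface or secreted inhibitors were followed in cultured clear cell renal cell carcinoma (ccRCC) cells, out of 45478 genes in the count table. The genes were CD274 (PD-L1), PDCD1LG2 (PD-L2), CD276 (B7-H3), VTCN1 (B7-H4), VSIR (VISTA), LGALS9 (galectin-9), PVR (CD155), NECTIN2 (CD112), CD47 and NT5E (CD73). The family was named by function, though with earlier results of these data known. LGALS9 was chosen by its counts, near 0 in parental 786-O cells and higher in cells of that line labelled as sunitinib-resistant. Its values in those groups are therefore given as a description without a test.

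mRNA of 4 groups was sequenced in 3 replicate libraries each, 12 in all. 786-O and A498 are established ccRCC lines, each sequenced as parental cells and as a line labelled sunitinib-resistant. The latter, called resistant 786-O and resistant A498 here by their labels, had been kept in sunitinib, an inhibitor of VEGF receptors and other receptor tyrosine kinases, for 4 months or over 20 passages, at 4 μM and 2 μM respectively. Every library was labelled as having received no further treatment, while the tag in each library title contains the letters veh. Whether a vehicle or sunitinib was present at harvest is not stated in the methods. All lines were grown in DMEM with foetal bovine serum, and no interferon or T cells are named in the labels of these libraries. Each resistant line is 1 selected culture, and no source used here says whether the replicate libraries came from separate cultures, so that p-values measure the spread between libraries, which may be technical. Total counts per library ranged from 20042519 to 47972092.

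Checkpoint ligands are displayed or secreted by tumor and myeloid cells and engage receptors on lymphocytes or macrophages. PD-L1 and PD-L2 bind PD-1 and dampen T cell receptor signaling, galectin-9 binds TIM-3 among other glycoproteins, CD155 and CD112 are shared between the inhibitory receptor TIGIT and the activating receptor CD226, CD47 restrains phagocytosis through SIRPα, and CD73 makes adenosine from AMP outside the cell. In ccRCC, antibodies against PD-1 or PD-L1 are used in patients whose disease progressed on kinase inhibitors, which is the setting the comparison of parental and resistant lines addresses. CD274 is a known target of interferon-γ through JAK1, JAK2 and IRF1.

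Some features of the libraries bear on every result. The libraries labelled resistant A498 did not resemble parental A498: 62 genes reached 10 CPM (counts scaled to the TMM-normalized library size) in parental A498 but had 3 counts or fewer in each parental 786-O library. Relative to parental A498 their median level was 0.362% in resistant A498, near the 0.238% of resistant 786-O. The median Pearson correlation of log2 CPM across genes of resistant A498 was 0.87 with parental A498, 0.951 with parental 786-O and 0.982 with resistant 786-O. Values of resistant A498 are therefore set beside both parental A498 and parental 786-O. In resistant 786-O, replicate 2 stood apart, with an SD of log2 deviations of 0.295 over 10085 genes against 0.169 and 0.176 in replicates 1 and 3 and 0.075 to 0.117 elsewhere, so values of the members in resistant 786-O are given with and without it. The genes named from the lists below kept their direction and call without replicate 2, except SOCS3, HHLA2 and ITGAM. Values of the named genes are given with replicate 2 unless stated. The labels name a separate batch for each group, and group and batch cannot be told apart. Of the markers of ccRCC, PAX8 was detected in all groups and NDUFA4L2 was at 0.474 to 0.573 CPM. CA9 was at 1.29 CPM in parental A498 and at 0.0175 CPM or less on average in the other groups. In resistant against parental 786-O, 5 of 8 such markers were lower and 1 higher, where 33.5% and 35.0% of all genes were. The counts were the same in resistant against parental A498, where 36.4% and 36.3% of all genes were. As log2 fold changes in resistant 786-O, CDH6 (-1.98, SE 0.19) and KRT18 (-0.86, SE 0.08) were lower and PAX2 (0.81, SE 0.13) was higher. The 17 immune cell markers summed to 2.35 to 2.77 CPM in parental and 1.57 to 2.04 CPM in resistant 786-O, and to 3.65 to 4.16 CPM in parental and 1.3 to 1.53 CPM in resistant A498, and 10 to 12 of them had 3 counts or fewer throughout a group. CSF1R accounted for most of that sum in parental 786-O, at 1.9 CPM, against 0.308 in resistant 786-O. Of the 4 immune cell markers with enough counts to be tested, CD8A (2.12, SE 0.31) and CD14 (1.05, SE 0.37) were higher in resistant 786-O. CSF1R (-2.62, SE 0.28) was lower, each as a log2 fold change against parental 786-O, where 35.0% of all genes were higher and 33.5% lower. Without replicate 2 these were 3 higher and 1 lower of 5, where 37.6% and 35.9% of all genes were.

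The promoters of CD274, LGALS9 and VTCN1 are shown because CD274 is the textbook interferon target of the family, and LGALS9 and VTCN1 are the genes at or near 0 in parental 786-O. Sequences are from RefSeq (GRCh38.p14), whose table held 9 of the 10 genes, PDCD1LG2 excepted, and each run covers 250 bases before the transcription start and the first 20 bases from it on. Capitals in CD274 and LGALS9 mark the interferon-response letters GAAANNGAAA, here on the opposite strand, and in CD274 also the STAT letters TTCNNNGAA; capitals in VTCN1 mark the AP-1 letters TGANTCA.
CD274, chr9:5450292-5450561, plus strand: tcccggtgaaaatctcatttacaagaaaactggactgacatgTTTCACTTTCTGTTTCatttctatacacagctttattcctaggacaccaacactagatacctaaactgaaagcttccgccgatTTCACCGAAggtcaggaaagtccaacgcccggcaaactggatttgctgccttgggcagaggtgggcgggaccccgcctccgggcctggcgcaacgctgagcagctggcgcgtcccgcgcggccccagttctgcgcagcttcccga
LGALS9, chr17:27630938-27631207, plus strand: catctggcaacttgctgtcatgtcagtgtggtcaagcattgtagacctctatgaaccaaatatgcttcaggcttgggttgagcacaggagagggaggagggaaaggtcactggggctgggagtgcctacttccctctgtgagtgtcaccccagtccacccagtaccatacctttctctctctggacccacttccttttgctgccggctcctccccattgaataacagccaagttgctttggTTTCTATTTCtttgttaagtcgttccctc
VTCN1, chr1:117210908-117211177, minus strand: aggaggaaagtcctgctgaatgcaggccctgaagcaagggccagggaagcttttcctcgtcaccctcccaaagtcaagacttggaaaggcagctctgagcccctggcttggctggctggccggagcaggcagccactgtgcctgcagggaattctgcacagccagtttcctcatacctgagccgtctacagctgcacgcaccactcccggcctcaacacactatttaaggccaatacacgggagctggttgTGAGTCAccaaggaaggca
In CD274 a pair of overlapping GAAANNGAAA matches lies 208 to 193 bases before the start and TTCNNNGAA lies 125 to 117 bases before it, while in LGALS9 GAAANNGAAA begins 9 bases before the start and ends on it. The run of LGALS9, from 27630938 on, lies inside the gene as positioned below, which begins at 27629798. Its positions thus refer to the RefSeq start alone. GAAANNGAAA was found on either strand in 3.57% of the 35116 promoters of 300 bases and in 2 of the 9 members with a sequence, CD274 and LGALS9. TTCNNNGAA occurred in 7.66% of promoters and in 1 member, and TGANTCA in 7.71% and in 1 member. The 300 bases of LGALS9 hold 2 CG pairs and those of VTCN1 hold 7, against a median of 14 over all promoters. Of all promoters, 18.2% hold at most 2 CG pairs and 39.3% at most 7. The other members with a sequence hold 22 to 45.

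Of the 10 transcripts, CD276 was the highest per length of exon in each group. Its level was 33.2 CPM per kb in parental 786-O and 68.4 in the resistant line, and 63.5 in parental A498 and 57.6 in its resistant line, which made up 29.8%, 41.9%, 47.1% and 36.9% of the sum of the 10 genes. NT5E ranked next to it in parental 786-O, at 28.8 CPM per kb, and sixth in parental A498, at 5.17. PVR, NECTIN2 and CD47 lay between 13.4 and 26.7 CPM per kb in all groups. CD274 had 3.59 and 2.89 CPM per kb in parental and resistant 786-O and 1.98 and 2.18 CPM per kb in parental and resistant A498, between 1.4% and 3.22% of the sum. LGALS9 was ninth in parental 786-O, at 0.00777 CPM per kb, and sixth in resistant A498, at 6.44, above CD274 there.

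**Figure D1:**
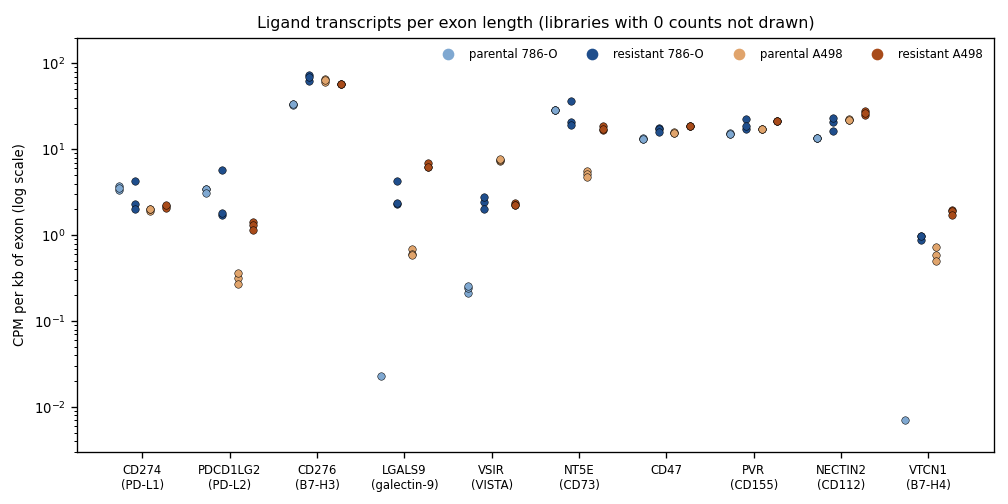
Level of each ligand transcript in CPM per kb of exon, on a log axis, with 1 point per library and colors for the 4 groups. CD276 is at the top in every group, and LGALS9 and VTCN1 in parental 786-O lie far below the other groups, with libraries at 0 counts left out.

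In resistant 786-O against parental 786-O, 5 of 8 members were higher, none was lower and 3 did not pass the test, where 35.0% of all genes tested were higher and 33.5% lower (edgeR's quasi-likelihood test, Benjamini-Hochberg adjusted p under 0.05 over 19929 genes). Values given with an SE are log2 fold changes of this test. Those higher were CD276, VSIR, CD47, PVR and NECTIN2. LGALS9 and VTCN1, at or near 0 in parental 786-O, are left out of counts of members that involve these libraries and are described on their own. Without resistant 786-O replicate 2, CD274, PDCD1LG2 and NT5E passed as lower in addition, and 37.6% of genes were then higher and 35.9% lower. Such bulk libraries cannot tell a change in the share of cells that carry a transcript from a change in the transcript per cell.

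**Figure D2:**
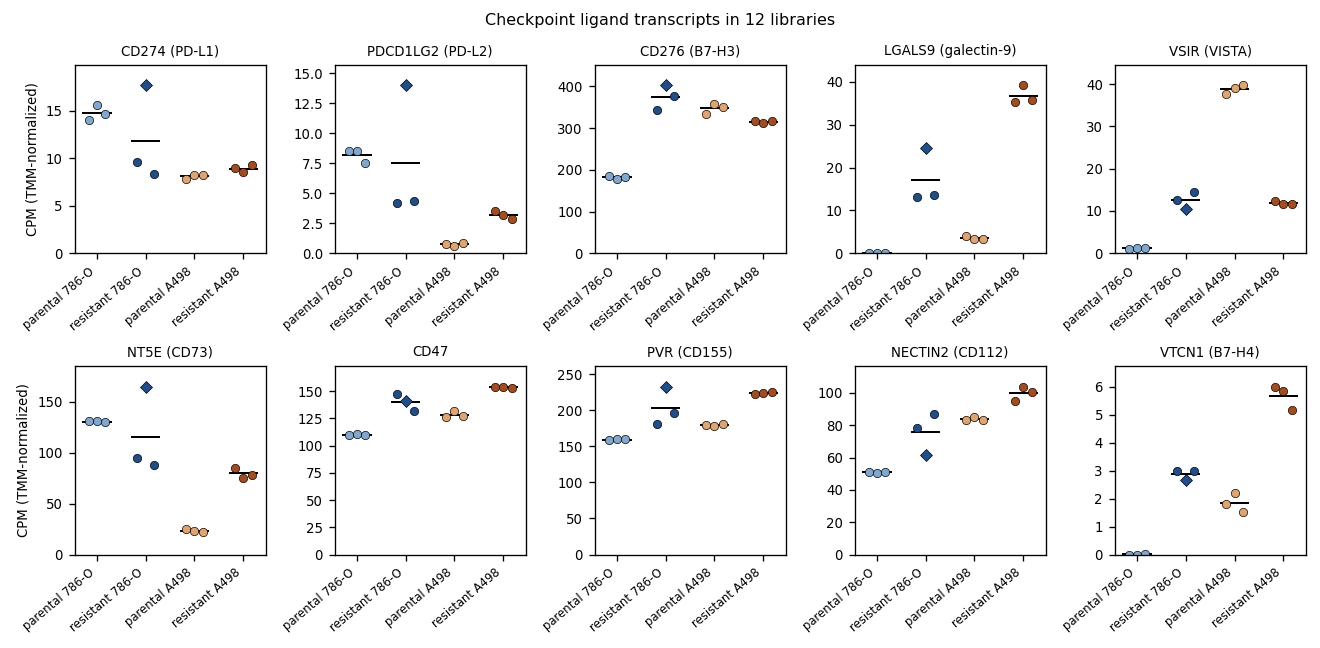
TMM-normalized CPM of the 10 ligand transcripts, 1 point per library, with black bars for the mean of 3 libraries and a diamond for resistant 786-O replicate 2. For CD274, PDCD1LG2 and NT5E the diamond lies above all parental 786-O libraries while the other resistant 786-O libraries lie below them.

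CD274 (chr9:5450503-5470566, plus strand, 7 exon blocks) encodes PD-L1. Its level was 14.0, 15.6 and 14.7 CPM in parental 786-O and 9.6, 17.7 and 8.35 CPM in resistant 786-O. The groups overlapped, since replicate 2 of resistant 786-O was the highest of these 6 libraries and replicates 1 and 3 were below all of parental 786-O. The log2 fold change was -0.32 (SE 0.19, adjusted p = 0.15) with all libraries, and -0.72 (SE 0.08, adjusted p = 2.8e-10) without replicate 2, in edgeR's test. In parental A498 the level was 7.88, 8.27 and 8.2 CPM and in resistant A498 9.02, 8.52 and 9.27 CPM. These values did not overlap but were close, and the difference did not pass the test (log2 fold change 0.14, SE 0.22, adjusted p = 0.57). Against parental 786-O, CD274 in resistant A498 was lower (-0.72, SE 0.2, adjusted p = 0.0063). The parental lines differed as well, with CD274 higher in parental 786-O than in parental A498 (0.87, SE 0.2, adjusted p = 0.0014). A higher CD274 transcript level in a resistant line thus did not pass the test against any reference used.

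PDCD1LG2 (chr9:5510531-5571282, plus strand), the gene of PD-L2, lies next to CD274. It was at 8.5, 8.51 and 7.54 CPM in parental 786-O and at 4.23, 14.0 and 4.37 CPM in resistant 786-O. The pattern was that of CD274, with replicate 2 above parental 786-O and the other libraries below. Its log2 fold change was -0.13 (SE 0.32, adjusted p = 0.74) with all libraries and -0.93 (SE 0.1, adjusted p = 4.5e-10) without replicate 2. In parental A498, PDCD1LG2 was at 0.78, 0.65 and 0.88 CPM, from 65 counts in the group, and in resistant A498 at 3.5, 3.21 and 2.82 CPM. It was higher in resistant A498 than in parental A498 (2.02, SE 0.54, adjusted p = 0.0035) and lower in resistant A498 than in parental 786-O (-1.36, SE 0.38, adjusted p = 0.0054), so its direction in resistant A498 turned with the reference.

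The genes around CD274 on chromosome 9 had no common direction. Of 10 neighbours, 3 were higher in resistant 786-O than in parental 786-O, 2 were lower and 5 did not pass, where 35.0% of all genes were higher and 33.5% lower, and CD274 itself did not pass. Without replicate 2 these numbers were 6, 3 and 1, where 37.6% and 35.9% of all genes were. JAK2, the kinase below the interferon-γ receptor, was at 8.44, 8.59 and 9.21 CPM in parental 786-O and 12.5, 10.6 and 10.7 CPM in resistant 786-O (0.37, SE 0.08, adjusted p = 0.0011). RIC1 was higher too (0.56, SE 0.08), and RCL1 (-0.61, SE 0.1) and RANBP6 (-0.29, SE 0.07) were lower. In resistant A498 against parental 786-O these 4 genes had the same directions, while against parental A498 JAK2 and RIC1 did not pass, RCL1 was lower (-0.41, SE 0.11) and RANBP6 was higher (0.37, SE 0.08).

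A list of receptors, kinases, transcription factors and feedback inhibitors of interferon signaling, of both type I interferons and interferon-γ, had 16 measured genes. In resistant 786-O 8 of them were higher, 5 lower and 3 not called, where 35.0% of all genes were higher and 33.5% lower. The median log2 fold change was 0.27 against 0.03 over all genes tested. Without replicate 2 the counts were 9, 6 and 1, where 37.6% and 35.9% of all genes were higher and lower. STAT2, a transcription factor of interferon signaling, rose from a mean of 32.8 ± 0.176 CPM (SD, n = 3) to 116 ± 23.0 (1.82, SE 0.11), and IRF9, which joins STAT2 in the type I interferon complex, from 0.357 to 1.53 CPM (2.11, SE 0.32). IRF1, which acts directly on the CD274 promoter, rose from 63.0 ± 1.24 to 77.6 ± 5.46 CPM (SD, n = 3; 0.3, SE 0.05, adjusted p = 0.00011 in edgeR's test). JAK1 (-0.48, SE 0.05) and the phosphatase PTPN11 (-0.76, SE 0.06) fell.

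In resistant A498 the same genes gave 8 higher and 5 lower against parental 786-O, and 4 higher and 6 lower against parental A498, where 31.6% and 32.1% of all genes were higher and lower in the former comparison and 36.3% and 36.4% in the latter. STAT2 passed as higher against both parental A498 (1.52, SE 0.1) and parental 786-O (2.33, SE 0.11), and IRF1 likewise (0.35, SE 0.05, and 0.53, SE 0.05). IRF9 passed against parental 786-O (1.46, SE 0.37) but its difference from parental A498 did not (0.16, SE 0.34). JAK1 was lower against both (-0.48, SE 0.05, and -0.56, SE 0.05), and PTPN11 was slightly higher than in parental A498 (0.16, SE 0.06) and lower than in parental 786-O (-0.4, SE 0.06). In each of these comparisons and in that of resistant with parental 786-O, STAT2 and IRF1 passed as higher and JAK1 as lower. CD274 passed as higher in none of them. A link between these genes and CD274 was not tested, and resistant A498 resembled resistant 786-O.

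**Figure D3:**
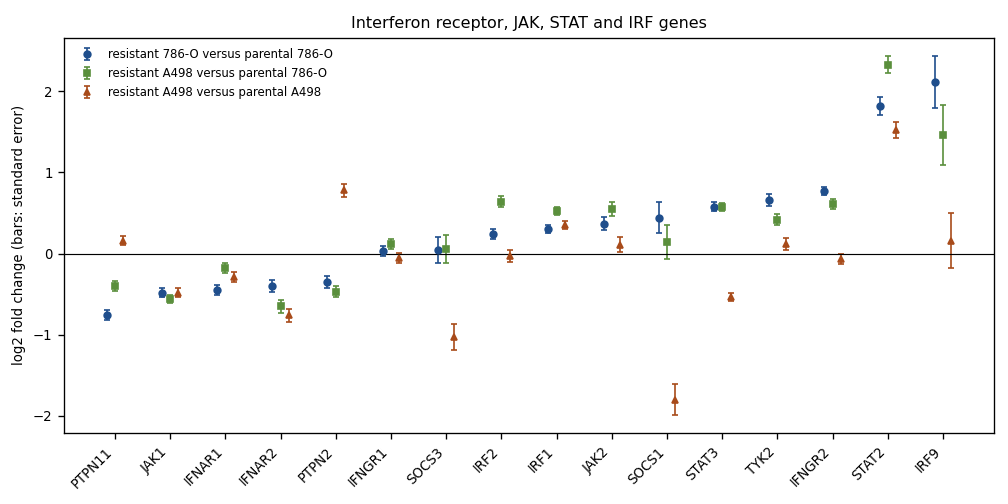
Log2 fold changes, with standard errors as bars, of 16 interferon receptor, JAK, STAT and IRF genes in 3 comparisons, ordered by the change in resistant 786-O. STAT2 and IRF1 are above 0 in each comparison, and JAK1 is below 0 in each.

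Genes that act on the PD-L1 protein were mostly lower in resistant 786-O: of 22 measured, 3 were higher, 15 lower and 4 not called, where 35.0% of all genes were higher and 33.5% lower. The median log2 fold change was -0.23 against 0.03 over all genes. Without replicate 2 the counts were 4, 17 and 1, where 37.6% and 35.9% of all genes were higher and lower. CMTM6, which keeps PD-L1 from lysosomal degradation, fell from 124 ± 2.52 to 80.2 ± 4.81 CPM (SD, n = 3; -0.62, SE 0.05, adjusted p = 6.1e-08 in edgeR's test), and its relative CMTM4 from 96.4 to 62.5 CPM (-0.63, SE 0.07). CUL3, the scaffold of a ubiquitin ligase that removes PD-L1, fell too (-0.68, SE 0.05), as did STT3B, a subunit of the N-glycosylation complex (-0.66, SE 0.05). The palmitoyltransferase ZDHHC9 (0.49, SE 0.06) and PRKAA2, a catalytic subunit of AMPK (0.83, SE 0.12), rose. In resistant A498, CMTM6 was higher than in parental A498 (0.89, SE 0.05) and lower than in parental 786-O (-0.21, SE 0.05), STT3B likewise (0.91, SE 0.05, and -0.21, SE 0.05), and CMTM4 was lower than in both (-0.47, SE 0.08, and -1.04, SE 0.07). CUL3 did not pass against parental A498 (-0.01, SE 0.06) and was lower against parental 786-O (-0.37, SE 0.05), ZDHHC9 was lower than in parental A498 (-0.56, SE 0.06) and higher than in parental 786-O (0.32, SE 0.06), and PRKAA2 was higher than in both (0.94, SE 0.12, and 1.24, SE 0.12). Over the list 11 were higher and 9 lower against parental A498, where 36.3% and 36.4% of all genes were. Against parental 786-O 8 were higher and 12 lower, where 31.6% and 32.1% of all genes were.

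CD276 (chr15:73683966-73714514, plus strand) encodes B7-H3, a B7 family member on many carcinomas whose receptor is not settled. It was at 184.8, 178.8 and 183.2 CPM in parental 786-O and 343.5, 402.7 and 377.9 CPM in resistant 786-O. All resistant 786-O libraries were well above parental 786-O, by 2.06-fold (log2 1.04, SE 0.05, adjusted p = 3.1e-10), and by a log2 of 0.98 without replicate 2. In parental A498 it was at 334.1, 358.8 and 351.4 CPM and in resistant A498 at 316.6, 312.8 and 317.5 CPM. That decrease passed the test narrowly (-0.14, SE 0.05, adjusted p = 0.026), and the call was lost, at adjusted p = 0.066 to 0.18 in edgeR's test, when any of 6 single libraries was left out: parental A498 replicate 2 or 3, any of resistant A498, or replicate 3 of resistant 786-O. Against parental 786-O, CD276 in resistant A498 was 1.73-fold higher (log2 0.79, SE 0.05).

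VSIR (chr10:71747556-71773520, minus strand) encodes VISTA, a B7-related inhibitor best known on myeloid cells. Its level was 1.1, 1.27 and 1.31 CPM in parental 786-O, from 150 counts, and 12.6, 10.5 and 14.4 CPM in resistant 786-O. The 10.1-fold difference (log2 3.34, SE 0.13, adjusted p = 1.1e-11) was far larger than the spread between libraries, and replicate 2 was the lowest of the resistant 786-O libraries, with a log2 change of 3.45 (SE 0.1) without it. Parental A498 had the highest level of the 4 groups, 37.7, 39.0 and 39.7 CPM, and resistant A498 had 12.4, 11.6 and 11.7 CPM. VSIR was therefore lower in resistant A498 than in parental A498 (-1.7, SE 0.1, adjusted p = 4.3e-10) and higher than in parental 786-O (3.27, SE 0.13), and the ranges of resistant A498 and resistant 786-O overlapped. The gene lies within CDH23 on the opposite strand without shared exon bases. Among markers of myeloid cells, in resistant 786-O CD14 was higher and CSF1R lower than in parental 786-O, as given above, and ITGAM did not pass (-0.01, SE 0.36), all under 2 CPM on average in these groups. Their part in the VSIR values was not tested.

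VTCN1 (chr1:117143587-117210960, minus strand) encodes B7-H4, an inhibitory B7 ligand of epithelial tumors. In parental 786-O it had 0, 0 and 1 counts, and in resistant 786-O 2.98, 2.66 and 2.97 CPM. Pooled over libraries this is a ratio of 350, with an exact 95% interval of 62.5 to 13900 for counting error only, and without replicate 2 the ratio was 363 (64.6 to 14400). VTCN1 passed the filter on low counts only through the groups in which it was detected, so that its passing the test in resistant 786-O (adjusted p = 1.1e-10) is not separate support. In parental A498 it was at 1.8, 2.18 and 1.51 CPM and in resistant A498 at 6.0, 5.84 and 5.16 CPM, a 3.12-fold difference (log2 1.64, SE 0.16, adjusted p = 1.8e-07). The ratio of pooled counts to parental 786-O was 690 (exact 95% interval 123 to 27300) in resistant A498 and 219 (38.8 to 8720) in parental A498.

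Among 9 further B7 and butyrophilin genes tested, 5 were higher in resistant than in parental 786-O, none was lower and 4 did not pass, also without replicate 2. Of all genes, 35.0% were higher and 33.5% lower with replicate 2, and 37.6% and 35.9% without it. Among those that did not pass, HHLA2 and BTNL9 were at 0.0226 CPM or less on average in both groups. They were detected mainly in parental A498, at 0.543 and 2.26 CPM. NCR3LG1, the gene of B7-H6, a ligand of the activating NK cell receptor NKp30, had 5.47, 5.69 and 6.03 CPM in parental 786-O and 32.5, 26.2 and 30.2 CPM in resistant 786-O (2.37, SE 0.08). It was likewise higher in resistant A498 than in parental A498 (1.46, SE 0.08) and in parental 786-O (2.56, SE 0.09). BTN3A3, a butyrophilin of the group that presents phosphoantigen to γδ T cells, was higher in resistant 786-O than in parental 786-O (1.14, SE 0.08), and higher in resistant A498 than in parental A498 (0.51, SE 0.08) and parental 786-O (1.03, SE 0.08).

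LGALS9 (chr17:27629798-27649560, plus strand, 10 exon blocks) had 0, 0 and 6 counts in parental 786-O. In resistant 786-O it had 645, 1076 and 626 counts, or 13.2, 24.6 and 13.7 CPM. All resistant 786-O libraries were above all parental 786-O libraries, the pattern for which the gene was singled out. The ratio of pooled counts to parental 786-O was 344 (exact 95% interval 158 to 939) in resistant 786-O, 743 (341 to 2030) in resistant A498 and 74.1 (33.7 to 204) in parental A498, with counting error alone in these intervals. Replicate 2 was the highest resistant 786-O library here, as for CD274, and without it the ratio in resistant 786-O was 272 (125 to 744).

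In parental A498, LGALS9 was at 4.0, 3.44 and 3.38 CPM and in resistant A498 at 35.4, 39.2 and 35.8 CPM. The level was 10.1-fold higher in resistant A498 (log2 3.34, SE 0.24, adjusted p = 6e-09 in edgeR's test). This comparison was not used to choose the gene. However, resistant A498 resembled resistant 786-O (median correlation 0.982), where a high level chose it, so the test is not separate support. The groups stood in the order resistant A498, resistant 786-O, parental A498 and parental 786-O with no overlap between neighbours. The near-identical copies LGALS9B and LGALS9C were listed at no more than 0.48 CPM in any library, and whether reads were assigned to the wrong copy was not tested. A further gene of the annotation shares 5.1% of the exon bases of LGALS9 on the same strand.

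The other galectins gave a mixed picture. LGALS3 was higher in resistant 786-O than in parental 786-O (0.81, SE 0.08). In resistant A498 it was below parental A498 (-1.74, SE 0.08) and did not differ by the test from parental 786-O (0.13, SE 0.08, adjusted p = 0.17 in edgeR's test). LGALS8 was higher in resistant 786-O than in parental 786-O (0.54, SE 0.05), and in resistant A498 than in parental A498 (1.75, SE 0.06) and parental 786-O (0.75, SE 0.05). LGALS1, the most abundant, was lower in the same comparisons (-0.56, SE 0.04, then -0.39, SE 0.04, and -0.98, SE 0.04). Only 4 of the 13 galectins listed had enough counts to be tested. The receptors of these ligands, among them PD-1, TIM-3 and TIGIT, summed over 14 genes to 1.79 to 3.24 CPM in all libraries.

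PVR (chr19:44643798-44666162, plus strand) and NECTIN2 (chr19:44846175-44889223, plus strand) lie near each other. PVR was at 158.4, 159.9 and 159.6 CPM in parental 786-O and 181.0, 233.0 and 196.1 CPM in resistant 786-O (0.35, SE 0.07, adjusted p = 0.00029), and the change was 0.24 (SE 0.04) without replicate 2, the highest library. It was at 180.0, 178.4 and 180.9 CPM in parental A498 and 222.2, 223.7 and 225.0 CPM in resistant A498 (0.31, SE 0.07, adjusted p = 0.00068). All libraries of each resistant line lay above all libraries of the parental line of its label. The difference between the changes was 0.04 (SE 0.1, adjusted p = 0.75). Against parental 786-O, PVR in resistant A498 was higher as well (0.49, SE 0.07). Resistant A498 resembled parental and resistant 786-O more than parental A498, and the part of this in its PVR change was not tested. The counts of PVR may include reads of an unconfirmed gene model that shares 19.4% of its exon bases on the same strand.

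NECTIN2 was at 51.0, 50.5 and 50.8 CPM in parental 786-O and 78.0, 61.6 and 87.2 CPM in resistant 786-O. Here replicate 2 was the lowest of its group, the reverse of PVR, and the change was 0.57 (SE 0.09, adjusted p = 4.1e-05) with it and 0.7 (SE 0.05) without it. In parental A498 the level was 83.2, 85.0 and 83.2 CPM and in resistant A498 95.1, 103.9 and 100.4 CPM (0.25, SE 0.09, adjusted p = 0.02), and that call was lost without parental A498 replicate 1 or 3 (adjusted p = 0.05 and 0.053 in edgeR's test). Other nectins and nectin-like genes did not share one direction: of 5 tested in resistant 786-O, 2 were higher and 2 lower, where 35.0% and 33.5% of all genes were. Without replicate 2 these were 1 and 2, where 37.6% and 35.9% of all genes were. NECTIN3, which binds PVR and NECTIN2 in cell contacts, was lower in resistant 786-O than in parental 786-O (-0.57, SE 0.05) as was CADM1 (-0.38, SE 0.06), and the weakly expressed CADM4 was higher (2.1, SE 0.16). In resistant A498, NECTIN3 and CADM1 were higher than in parental A498 (1.14, SE 0.05, and 1.56, SE 0.07) and lower than in parental 786-O (-0.55, SE 0.05, and -0.45, SE 0.06). CADM4 did not pass against parental A498 (0.16, SE 0.14) and was higher against parental 786-O (2.08, SE 0.17).

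CD47 (chr3:108043091-108091862, minus strand) was at 109.6, 110.5 and 110.0 CPM in parental 786-O and 147.5, 140.8 and 131.4 CPM in resistant 786-O. The groups did not overlap, and the change was 1.27-fold (log2 0.35, SE 0.05, adjusted p = 8.3e-06), or a log2 of 0.34 without replicate 2. CD47 was at 126.1, 132.1 and 127.0 CPM in parental A498 and higher, at 154.1, 153.7 and 152.9 CPM, in resistant A498 (0.26, SE 0.05, adjusted p = 0.00013). Against parental 786-O, CD47 in resistant A498 was higher as well (0.48, SE 0.05). The difference between the changes, each against the parental line of its label, was 0.09 (SE 0.06, adjusted p = 0.24). The part of the likeness of resistant A498 to 786-O in these values was not tested. Of 9 measured genes of the CD47 axis, 4 were higher and 3 lower in resistant 786-O, where 35.0% and 33.5% of all genes were. Without replicate 2 these were 3 and 3, where 37.6% and 35.9% of all genes were. THBS1, a secreted CD47 ligand, was lower (-0.44, SE 0.07), LRP1, a phagocytic receptor for calreticulin, was higher (0.58, SE 0.09), and QPCTL, the enzyme that modifies CD47 for SIRPα binding, was slightly higher (0.15, SE 0.06, adjusted p = 0.041). QPCT, its secreted relative, was near 0 in resistant 786-O, at 0.04, 0.18 and 0.02 CPM against 1.34, 1.32 and 1.18 CPM in parental 786-O (-3.94, SE 0.46). In resistant A498, THBS1 was higher than in parental A498 (2.06, SE 0.07) and lower than in parental 786-O (-0.27, SE 0.07), and LRP1 was lower than in parental A498 (-2.05, SE 0.1) and higher than in parental 786-O (0.37, SE 0.09). QPCTL did not pass against either (0.06, SE 0.06, and 0.13, SE 0.06).

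NT5E (chr6:85449584-85495791, plus strand) encodes CD73. It was at 130.9, 131.1 and 130.0 CPM in parental 786-O and 94.7, 165.0 and 87.9 CPM in resistant 786-O, with replicate 2 again above the parental line and the other libraries below it. The change was -0.17 (SE 0.16, adjusted p = 0.36) with all libraries and -0.52 (SE 0.05, adjusted p = 8e-12) without replicate 2. In parental A498 it was at 25.4, 23.2 and 21.8 CPM and in resistant A498 at 85.4, 75.2 and 78.5 CPM, so that resistant A498 was 3.39-fold above parental A498 (log2 1.76, SE 0.18, adjusted p = 4.3e-07) and below parental 786-O (-0.71, SE 0.17, adjusted p = 0.0017).

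Other genes of adenosine handling were split in resistant 786-O, where 4 of 11 were higher and 3 lower, against 35.0% and 33.5% of all genes. Without replicate 2 these were 4 and 4, against 37.6% and 35.9% of all genes. ENTPD1 (CD39), which supplies AMP to CD73, was at 24.7 ± 0.785 CPM in parental 786-O and 25.6 ± 1.31 in resistant 786-O (SD, n = 3; 0.05, SE 0.06, adjusted p = 0.41 in edgeR's test). ADK, which removes adenosine by phosphorylation, fell (-0.94, SE 0.06), as did the ectoenzyme ENPP1 (-0.88, SE 0.09). DPP4 (CD26), which anchors adenosine deaminase, was at 65.6, 65.0 and 68.2 CPM in parental 786-O and 158.1, 261.9 and 148.4 CPM in resistant 786-O (1.51, SE 0.15), and replicate 2 was highest once more, with a change of 1.21 (SE 0.04) without it. SLC29A2, a nucleoside transporter, rose from 0.332 to 3.01 CPM (3.21, SE 0.34). In resistant A498, ENTPD1 was higher than in parental A498 (1.38, SE 0.06) and slightly higher than in parental 786-O (0.2, SE 0.06), and ENPP1 was higher than in parental A498 (1.19, SE 0.1) and lower than in parental 786-O (-0.71, SE 0.09). ADK and DPP4 did not pass against parental A498 (-0.11, SE 0.06, and -0.2, SE 0.15), and against parental 786-O ADK was lower (-0.84, SE 0.06) and DPP4 higher (1.6, SE 0.15). SLC29A2 was higher than in both (2.11, SE 0.36, and 2.86, SE 0.37).

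In resistant A498 against parental A498, 8 members remain when LGALS9 and VTCN1 are left out as in the other comparisons. Of these, PDCD1LG2, NT5E, CD47, PVR and NECTIN2 were higher, CD276 and VSIR were lower and CD274 did not pass. Of all genes, 36.3% were higher and 36.4% lower. LGALS9 and VTCN1 were higher too, as given above. Against parental 786-O, the same libraries gave 5 members higher and 3 lower of 8, where 31.6% and 32.1% of genes were. The comparisons of resistant 786-O and of resistant A498 with parental 786-O share the parental 786-O libraries. Side by side, their log2 fold changes were 1.04 and 0.79 for CD276, 3.34 and 3.27 for VSIR, 0.35 and 0.48 for CD47, 0.35 and 0.49 for PVR and 0.57 and 0.97 for NECTIN2. Between the parental lines, 3 of 8 members were higher in parental 786-O and 5 in parental A498, where 38.2% and 36.1% of genes were. The members higher in parental 786-O were CD274, PDCD1LG2 (3.38, SE 0.47) and NT5E (2.48, SE 0.18), and the largest difference among those 5 was in VSIR (-4.97, SE 0.12). The smallest was in PVR (-0.17, SE 0.07, adjusted p = 0.03), a call lost without any 1 of the libraries of parental 786-O, parental A498 or resistant A498 (adjusted p = 0.051 to 0.086 in edgeR's test).

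The change in resistant 786-O and that in resistant A498, each against the parental line of its label, were compared by an interaction term of the same model. They differed for 5 of 8 members, CD276, VSIR, NT5E, PDCD1LG2 and NECTIN2, where 68.3% of genes did. Resistant A498 resembled parental and resistant 786-O more than parental A498, and the part of this in the differences was not tested. The call of NECTIN2 was lost when any of 10 single libraries was left out, but not without resistant 786-O replicate 2 (0.44, SE 0.06). Without that replicate CD274 differed as well (-0.87, SE 0.12). CD276, VSIR, NT5E and PDCD1LG2 kept their calls, and CD47 and PVR did not differ.

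**Figure D4:**
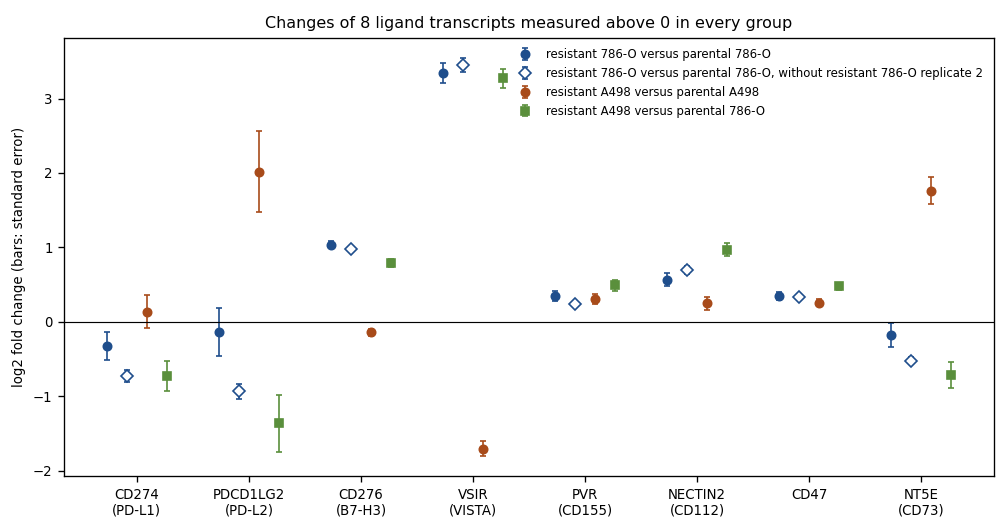
Log2 fold changes, with standard errors as bars, of the 8 ligand transcripts detected in every group, for resistant 786-O against parental 786-O with and without resistant 786-O replicate 2 and for resistant A498 against parental A498 and against parental 786-O. VSIR in resistant A498 lies below 0 against parental A498 and above 0 against parental 786-O, and PDCD1LG2 and NT5E do the reverse.

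The resistant 786-O replicate 2 library differed from the mean of replicates 1 and 3 by a log2 of 0.98 for CD274, 1.69 for PDCD1LG2, 0.87 for LGALS9 and 0.85 for NT5E. A deviation of that size in either direction was seen in 0.912%, 0.109%, 1.32% and 1.4% of 10085 genes in the same library. Those genes had a mean of at least 10 CPM across all libraries. PDCD1LG2 lies below that, at 0.772 to 8.18 CPM on average in the groups, so its share compares it with genes of higher counts. For CD276 (0.16), CD47 (0.02), PVR (0.31), VSIR (-0.36), NECTIN2 (-0.42) and VTCN1 (-0.16) it was smaller. Of the interferon genes named, STAT2 (89.1 CPM), IRF1 (71.8 CPM) and IRF9 (0.85 CPM) were lowest in replicate 2 of resistant 786-O. So were JAK1, PTPN11 and, barely, JAK2 (10.6 CPM against 10.7 CPM in replicate 3). SOCS3 of the same list went the other way, at 0.05 (SE 0.16) with replicate 2 and -0.28 (SE 0.07) without it. The part of these genes in the deviations was not tested.

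**Figure D5:**
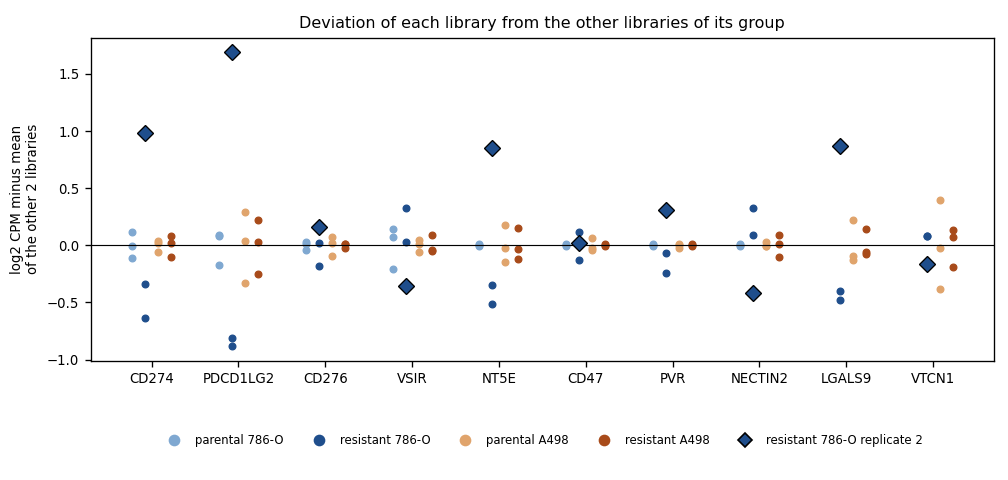
Log2 CPM of each library minus the mean of the other 2 libraries of its group, for the 10 ligands, with a diamond for resistant 786-O replicate 2 and without parental 786-O for LGALS9 and VTCN1. The diamond is at 0.98 for CD274 and 1.69 for PDCD1LG2, and libraries of the other groups stay closer to 0 for these genes.

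Across the 12 libraries, the genes whose log2 CPM ran most like CD274 were MARCHF4 (Pearson r = 0.954), ZNG1A (0.94) and ORC1 (0.935), out of 12119 genes with at least 5 CPM in a group. For LGALS9 they were IFITM1 (0.992), PPP1R3B (0.991) and LGALS3BP (0.99). IFITM1, an interferon-induced membrane protein, had mean levels of 0.161 and 14.4 CPM in parental and resistant 786-O and 4.99 and 47.5 CPM in parental and resistant A498. LGALS3BP, a secreted galectin-binding glycoprotein, had 497, 1580, 1150 and 1750 CPM in the same order. These correlations describe 12 libraries that fall into 4 groups, and they share group, batch and depth.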

How the data were processed

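Gene counts of parental and sunitinib-resistant 786-O and A498 cells were compared, with 3 replicate libraries per group. The authors deposited raw counts per gene without normalization; according to the methods and the submitters' processing notes, RNA was isolated with a QIAGEN RNeasy kit, libraries were prepared with a stranded poly(A) kit, and reads were demultiplexed with bcl2fastq 2.19.0, trimmed with Trimmomatic 0.36.6, aligned to GRCh38/hg38 with HISAT2 2.1.0 and counted on a GENCODE annotation with featureCounts 1.6.3 in a stranded mode. Gene positions and exon lengths were taken from GENCODE 44 on the same assembly.

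Groups were read from the labels. The members and all lists were chosen with earlier results of these data known. Counts were fitted in R 4.3.3 with edgeR 4.0.16 after filterByExpr (19929 genes) and TMM normalization, in 1 quasi-likelihood model of 12 libraries and 4 group means, with Benjamini-Hochberg adjustment over all genes and a threshold of 0.05. Log2 fold changes use a prior count of 0.125, and log2 CPM for correlations and deviations a prior count of 2. CPM per kb divides by the summed exon length. LGALS9 was tested only in resistant A498 against parental A498. From each list, called genes of at least 1 CPM are named, at most 2 with the highest and 2 with the lowest change in resistant 786-O. Named besides are JAK2, IRF1, CMTM6, CMTM4, ENTPD1, LGALS9B and LGALS9C, and the 3 symbols most correlated with CD274 and LGALS9. SOCS3, HHLA2, BTNL9 and the markers PAX8, CA9, NDUFA4L2, CD8A, CD14 and ITGAM are named outside this rule. 1 gene of the interferon list is not reported here and is left out of that list's counts. Code was tested on simulated data. No 2 libraries agreed within sampling noise. Same-numbered libraries did not deviate together. Alternatives were other scalings and filters, DESeq2 1.42.0, a replicate block, thinning, a fold threshold, the study's own test of single genes, and each library left out.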

Additional observations from a re-analysis of the deposited data

Results flagged for a closer look

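The change in resistant 786-O against parental 786-O and the change in resistant A498 against parental A498 differed for 5 of 8 members, VTCN1 and LGALS9 left out, by an interaction term in edgeR's quasi-likelihood test, where 68.3% of all genes differed. The change in resistant 786-O minus that in resistant A498 was 5.04 (SE 0.16, adjusted p = 1e-12) for VSIR on the log2 scale, 1.18 (SE 0.07, adjusted p = 2.4e-09) for CD276, -1.94 (SE 0.24, adjusted p = 4.8e-06) for NT5E and -2.15 (SE 0.63, adjusted p = 0.0074) for PDCD1LG2. VTCN1 differed by 6.29 (SE 0.51), a fitted value that rests on 1 count in parental 786-O and depends on the prior count. NECTIN2 differed by 0.32 (SE 0.13, adjusted p = 0.034), a call lost in edgeR's test, at adjusted p = 0.058 to 0.1, when any of 10 single libraries was left out, all but replicate 2 of either resistant line. For CD274 the difference was -0.46 (SE 0.29, adjusted p = 0.18) with all libraries and -0.87 (SE 0.12, adjusted p = 4e-08) without resistant 786-O replicate 2. NECTIN2 without that replicate differed by 0.44 (SE 0.06, adjusted p = 1.4e-07 in edgeR's test). The libraries labelled resistant A498 resembled parental 786-O and resistant 786-O more than parental A498, and the part of this in the differences was not tested.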

How the results depend on the processing

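Of 1110 values recomputed for the members, 1042 kept their direction and side of the threshold, 12 turned direction, 42 lost a call, 9 gained a call and 5 values without a test moved by more than the spread between replicates. With an absolute log2 fold change over 1 in addition, the members called were 3 in resistant 786-O against parental 786-O, 5 in resistant A498 against parental A498, 4 between the parental lines and 3 in resistant A498 against parental 786-O, in place of 6, 9, 9 and 9. All of these counts include VTCN1, and those of resistant A498 against parental A498 include LGALS9. Without VTCN1, the 6, 9, 9 and 9 became 5, 8, 8 and 8. Of all genes, without the fold threshold, 35.0% were higher and 33.5% lower in the first comparison, 36.3% and 36.4% in the second, 38.2% and 36.1% in the third, and 31.6% and 32.1% in the last. The study's own test on raw counts called 5 in each of the last 3 comparisons. On raw counts, CD274 in resistant A498 against parental A498 was -0.03, CD47 and PVR were 0.33 and 0.37 between the parental lines and -0.25 and -0.24 in resistant A498 against parental 786-O, and PDCD1LG2 in resistant 786-O was 0.04; raw counts are not scaled for library size. PDCD1LG2 in resistant 786-O was 0.01 with scaling by library size alone, and with single libraries left out it ranged from -0.93 to 0.19, the lowest without replicate 2. NT5E in resistant 786-O ranged from -0.52 to 0.01 in the same way. The difference of the changes in PVR was -0.01 with no filter and -0.08 to 0.11 with single libraries left out, the lowest without resistant 786-O replicate 2. With no filter, CD274 and NT5E passed as lower in resistant 786-O (adjusted p = 0.0043 and 0.017 in edgeR's test); the cause was not tested. CD276 in resistant A498 against parental A498 and PVR between the parental lines lost their calls without 6 and 9 single libraries respectively. With the replicate number as a block, members called were 6, 9, 9 and 9 and 6 for the difference, with VTCN1 and LGALS9 counted as above. The block thus changed no call, and numbers do not mark shared cultures. Depth limits LGALS9 and VTCN1 in parental 786-O, at 6 and 1 counts.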
